A study of Mus musculus with 8 samples.

Results

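Apelin, its receptor and a pair of markers of sprouting vessels were followed as 4 genes of the 16791 in the count table: Apln, Aplnr, Esm1 and Cd34. They are taken from the table by name, and each was read in the cells of every mouse, in each class of endothelial cells (ECs) and cell by cell. The cells came from the ventricles of adult Pdgfb-iCreERT2-R26R-Brainbow2.1 mice, in which a Cre under the Pdgfb promoter switches on a Confetti reporter in ECs after tamoxifen (150 mg/kg, a single injection). All 8 mice carried the transgenes and received tamoxifen. In 4 mice the left anterior descending artery was tied off for good 14 days after tamoxifen, giving a myocardial infarction (MI), and the hearts were taken 7 days post-MI, 21 days after tamoxifen. The other 4 were healthy controls, and no sham-operated group is among the samples used here. CD31+ Confetti+ podoplanin- cells were sorted and profiled with droplet 3′ RNA-seq, 1 library per mouse, so that cells lacking the reporter were not sampled and most lymphatic ECs were gated out.

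Apelin is a secreted peptide that binds the G protein-coupled receptor encoded by Aplnr. Apln is known from ECs at the tips of growing vessels and from hypoxic tissue, and Aplnr from venous and capillary ECs during development and regrowth. Esm1 encodes endocan, a proteoglycan secreted by ECs that respond to VEGF, and Cd34 encodes a sialomucin of the endothelial surface that is also found on tip cell filopodia. In the GENCODE annotation of GRCm38, Apln (ENSMUSG00000037010) is at chrX:48025146-48034853 on the minus strand with 3 exons, and Aplnr (ENSMUSG00000044338) is at chr2:85136225-85139923 on the plus strand with up to 2 exons. Esm1 (ENSMUSG00000042379) is at chr13:113209659-113218098 on the plus strand with 3 exons, and Cd34 (ENSMUSG00000016494) is at chr1:194938819-194961279 on the plus strand with up to 8 exons.

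The 250 bases before the RefSeq start (GRCm38.p6) are shown for the 3 genes that had an entry, because Apln and Cd34 were the members whose levels separated healthy from MI hearts and Esm1 was the one that did so least. Aplnr had no entry. The sequences run 5′ to 3′ on the strand of the gene, and capitals mark GGAA or its reverse complement TTCC, the core that ETS factors of ECs bind.
Apln, chrX:48034854-48035103, minus strand: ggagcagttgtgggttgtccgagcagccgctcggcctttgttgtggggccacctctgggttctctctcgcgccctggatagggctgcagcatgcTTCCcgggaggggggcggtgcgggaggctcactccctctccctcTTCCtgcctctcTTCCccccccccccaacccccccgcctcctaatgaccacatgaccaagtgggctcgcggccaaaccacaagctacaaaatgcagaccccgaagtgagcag
Esm1, chr13:113209409-113209658, plus strand: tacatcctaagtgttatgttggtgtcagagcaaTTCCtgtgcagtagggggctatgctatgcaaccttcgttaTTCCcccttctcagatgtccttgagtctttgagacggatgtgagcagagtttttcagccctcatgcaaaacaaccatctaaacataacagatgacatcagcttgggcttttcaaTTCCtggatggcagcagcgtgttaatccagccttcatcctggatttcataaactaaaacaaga
Cd34, chr1:194938571-194938820, plus strand: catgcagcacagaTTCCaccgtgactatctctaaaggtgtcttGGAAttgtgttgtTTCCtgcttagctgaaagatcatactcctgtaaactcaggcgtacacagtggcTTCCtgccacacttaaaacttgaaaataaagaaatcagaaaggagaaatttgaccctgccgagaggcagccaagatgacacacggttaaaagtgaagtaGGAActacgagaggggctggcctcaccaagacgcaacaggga
The core occurred 3 times before Apln, 3 times before Esm1 and 5 times before Cd34, and of 32851 windows of the same length 93.4% held it, with a median of 3 matches. The letters ACGTG or CACGT, the core of hypoxia response elements (16.6% of windows), and CACCC or GGGTG, bound by KLF factors (52.0%), were in none of the 3 windows on either strand. GC content was 65.2% before Apln, 44.0% before Esm1 and 46.4% before Cd34.

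Of 31028 cells, 2171 with UMIs of macrophage, pericyte, erythroid or other markers were set aside, leaving 12839 ECs of healthy and 16018 of MI hearts, whose 10 pan-endothelial markers summed to 7551–8360 CPM (UMIs of a gene scaled to a common library total) in every mouse. MI libraries were deeper, with a median of 3403–4675 UMIs per EC against 1472–2076.5, so shares of cells are given after each cell was thinned to 1000 UMIs. ECs with fewer UMIs, 1610 healthy cells with 926 of them in Healthy 228, were left out of all values at that depth. The 8 macrophage markers summed to 253–422 CPM in MI ECs and 23.7–100 in healthy ECs, and their part in the results was not tested. Libraries of healthy hearts shared cells. In 2030 cells of Healthy 228, at least 90% of the UMIs matched, gene by gene, those of a deeper cell of Healthy 239 under the same barcode. In the same way 301 in Healthy 227 matched Healthy 228, and 2 were in Healthy 239. All fits and shares were also computed without these 2333 copies, and the values are given for the main comparisons of the groups. Y-linked genes were counted in Healthy 227 and MI 244 and in none of the other mice, 1 mouse per group.

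The ligand rose most of the 4 genes after MI. Summed over all ECs, Apln stood at 45.1, 55.3, 74.2 and 73.5 CPM in healthy mice 227, 228, 239 and 240, and at 181, 117, 135 and 119 CPM in MI mice 244, 250, 255 and 256. The lowest MI value exceeded the highest healthy value. The mean was 62.0 ± 14.3 CPM in healthy and 138 ± 29.9 CPM in MI hearts (SD, n = 4 each), a ratio of 2.22. The log2 fold change was 1.07 ± 0.18 (SE; edgeR, adjusted p = 0.00206), and 1.14 without the copied cells (edgeR, adjusted p = 0.00311). In this comparison 38.2% of all tested genes passed the same threshold, an adjusted p under 0.05, so that a call was a common outcome. The share of all genes whose groups did not overlap was not determined. Separation of the groups, here and below, therefore only describes the values of each gene.

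Cd34, the surface sialomucin, rose in the same way. Its level was 617, 624, 760 and 761 CPM in healthy and 1254, 1196, 1090 and 921 CPM in MI mice, in the same order of mice. The groups did not overlap, and the MI mean of 1115 ± 146 CPM was 1.62 times the healthy mean of 690 ± 81.1 CPM. The log2 fold change was 0.61 ± 0.11 (edgeR, adjusted p = 0.00268), and 0.63 without copies (edgeR, adjusted p = 0.00372).

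The receptor was higher on average after MI, but its groups overlapped. Aplnr was at 319, 410, 439 and 566 CPM in healthy and at 650, 707, 689 and 491 CPM in MI mice, with MI 256 below Healthy 240. The log2 difference of 0.46 ± 0.17 missed the threshold (edgeR, adjusted p = 0.0502), and was 0.42 without copies (edgeR, adjusted p = 0.0786). Without Healthy 240 it was 0.62 and without MI 256 it was 0.57, both past the threshold (edgeR, adjusted p = 0.0133 and 0.0219). With all 8 mice it also passed with DESeq2 (0.47), limma-voom (0.48), no TMM (0.55), no filter on low counts (0.48) and likely doublets left out (0.48).

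Esm1, the other marker of sprouting, showed no such separation. It was at 23.3, 33.2, 37.5 and 42.4 CPM in healthy and at 53.4, 25.9, 43.4 and 35.7 CPM in MI mice, and the ranges overlapped through most of their length. The log2 difference was 0.13 ± 0.23 (edgeR, adjusted p = 0.682). MI 244 was highest and Healthy 227 lowest, and without MI 244 the difference was −0.05.

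**Figure D1:**
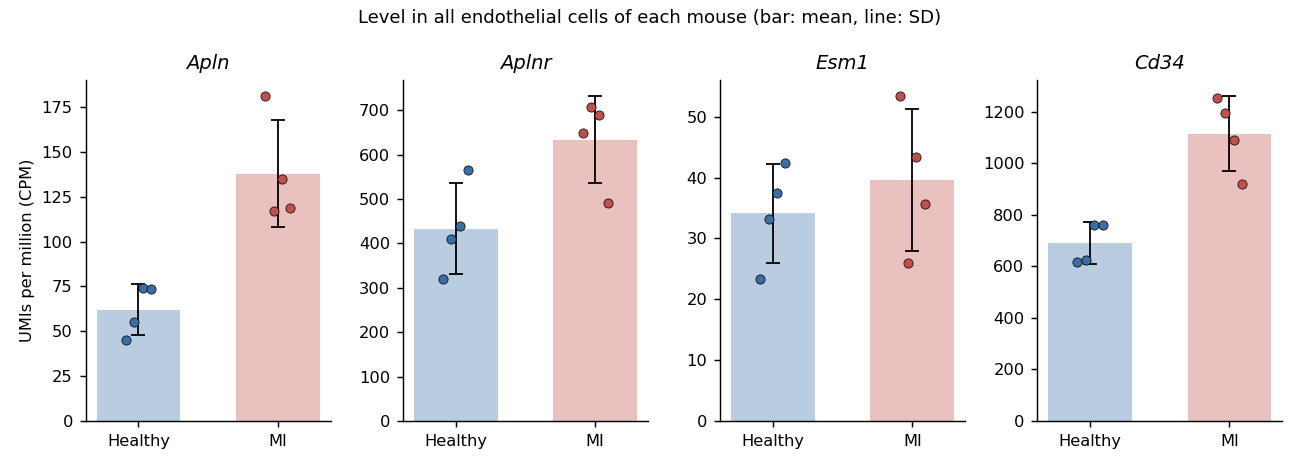
Level of each gene in the summed ECs of each mouse, in CPM, for 4 healthy and 4 MI mice (points: mice, bar: mean, line: SD). Apln and Cd34 do not overlap between groups, Aplnr overlaps through MI 256 at 491 and Healthy 240 at 566 CPM, and Esm1 overlaps broadly.

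The share of cells with a UMI separated the groups for the same 2 genes, Apln and Cd34. How common such separation of cell shares was over all genes was not determined. At 1000 UMIs per cell, Apln was seen in 2.17%, 3.40%, 3.76% and 4.51% of healthy ECs and in 11.7%, 8.0%, 8.61% and 7.54% of MI ECs (exact permutation test, two-sided p = 0.0286, the smallest that 4 against 4 mice allow). Cd34 was seen in 45.4 ± 3.52% of healthy and 63.1 ± 5.84% of MI ECs (exact permutation p = 0.0286, n = 4 each). Without copies the Apln share of Healthy 228 was 2.34%, the difference between groups was 5.84 points for Apln and 18.6 for Cd34 (exact permutation p = 0.0286 for each), and the groups stayed apart. For Aplnr the shares were 28.3 ± 4.94% and 38 ± 5.74% (exact permutation p = 0.0571, n = 4 each), and for Esm1 2.58% and 2.84% (exact permutation p = 0.60, n = 4 each). Both genes again overlapped between groups. With all UMIs of each cell the shares were 6.34% and 26.1% for Apln, 41.8% and 69.0% for Aplnr, 4.42% and 8.34% for Esm1 and 65.2% and 93.5% for Cd34, figures that carry the difference in depth.

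A UMI in a cell does not by itself show expression. In macrophage-like cells, which should lack the 4 transcripts, the thinned share with a UMI of Apln was 1.27% of 158 healthy and 1.36% of 1099 MI cells, and that of Aplnr 3.80% and 9.28%. For Esm1 it was 0% (0 of 158 cells allows up to 2.31%, exact 95% interval) and 1.73%, and for Cd34 8.23% and 17.6%. These cells had medians of 4689.5 and 7116 UMIs before thinning. The mean share of ECs was above that of macrophage-like cells for each gene in each group, but close to it for Esm1 in MI hearts. Whether free RNA or doublets gave these UMIs was not tested.

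Per cell, Apln and Esm1 were rare and uneven. In MI hearts 11813 of 16018 ECs held no Apln UMI, 2094 held 1, and 176 held 10 or more, up to 75 in a cell. Esm1 was absent from 14697 MI ECs, while 49 held 10 or more and a single cell held 80. Aplnr reached 10 UMIs in 1425 and Cd34 in 3045 MI ECs, and 1002 MI ECs held no Cd34 UMI. Apln and Esm1 were thus seen in a minority of the ECs of either group.

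The classes were set by UMIs of marker genes that exclude the 4 members: 16197 capillary-like cells (markers such as Rgcc, Car4 and Gpihbp1), 2965 arterial-like (Gja4, Sox17, Sema3g), 363 venous-like (Nr2f2, Vcam1, Selp), 1319 cycling (Mki67, Top2a), 2549 interferon-response (Ifit1, Isg15) and 1111 Plvap-high cells (Plvap, Lrg1). Of the Plvap-high cells 1093 came from MI hearts, so this class was read there alone. Endocardial-like and lymphatic-like cells, 15 and 31 in all, were too few. Another 2329 cells met no marker minimum, 368 met several and 1610, all healthy, had under 1000 UMIs.

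Ligand and receptor were both low in arterial-like cells. Apln there was 0.151 ± 0.107 and Aplnr 0.162 ± 0.0517 times the capillary-like level of the same mouse (mean ± SD, n = 8), below it in 8 of 8 mice. The log2 difference from capillary-like cells was −2.33 ± 0.23 for Apln and −2.55 ± 0.09 for Aplnr (edgeR, adjusted p = 4.12e-12 and 1.89e-29), in a comparison that called 28.8% of genes. Cd34 was lower by less, at −0.63 (edgeR, adjusted p = 4.00e-10), and Esm1 differed by 0.02 (edgeR, adjusted p = 0.966). In healthy arterial-like cells the thinned share was 0.341% for Apln and 4.16% for Aplnr. In MI it was 2.13% and 10.6%. The shares in macrophage-like cells, given above, were 1.27% and 3.80% in healthy and 1.36% and 9.28% in MI hearts. The healthy Apln share there was 2 of 158 cells (exact 95% interval 0.154% to 4.50%), a range that holds the arterial-like 0.341%. Over all cells set aside as other types, the thinned shares were 0.331% for Apln and 5.12% for Aplnr in healthy hearts. In MI hearts they were 1.24% and 9.42%. All of these shares pool the cells of 4 mice, and the classes were not compared mouse by mouse.

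Venous-like cells held almost no Esm1, and no difference in the ligand or the receptor passed the test. Many of them lay near the edge of the class: 210 of the 363 held just the minimum of 3 venous marker UMIs, and their median of capillary marker UMIs was 24, against 27 in capillary-like cells. Their Aplnr differed from capillary-like cells by 0.05 and their Apln by −0.32 on the log2 scale (edgeR, adjusted p = 0.836 and 0.597). Esm1 had 0 UMIs in the 127 healthy venous-like cells and 3, 0, 2 and 3 in the 4 MI mice, a fitted difference of −3.01 ± 0.68 (edgeR, adjusted p = 0.00103) where 12.1% of genes were called. With 1 more marker UMI asked of each cell the Aplnr difference was −0.13 (edgeR, adjusted p = 0.710), and that of Esm1 was −2.06 and missed the threshold (edgeR, adjusted p = 0.182). At 1000 UMIs the 0 of 127 healthy cells allow a share of up to 2.86% (exact 95% interval), against 2.55% in healthy capillary-like cells. Cd34 was lower, at −0.68 (edgeR, adjusted p = 4.82e-08).

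Plvap-high cells of MI hearts had the highest mean Aplnr of any class, 953 ± 108 CPM, against 725 ± 115 CPM in MI capillary-like cells. The ratio within a mouse was 1.19 to 1.49, above 1 in 4 of 4 mice, and the log2 difference was 0.34 ± 0.09 (edgeR, adjusted p = 0.00351, with 29.4% of genes called). Without MI 256 it was 0.26 and missed the threshold (edgeR, adjusted p = 0.0631). Apln there differed by −0.14 (edgeR, adjusted p = 0.681) and Cd34 by −0.23 (edgeR, adjusted p = 0.0487), a call lost at −0.22 to −0.23 without any of Healthy 227, Healthy 228 or the 4 MI mice. Esm1 in these cells ran from 6.71 CPM in MI 256 to 96.1 in MI 244, and its difference of 0.49 missed the threshold (edgeR, adjusted p = 0.0867), which it passed at 0.84 without MI 255 and 0.74 without MI 256.

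In cycling cells Apln was higher and its receptor lower than in capillary-like cells. The log2 differences were 0.52 ± 0.18 for Apln and −0.73 for Aplnr (edgeR, adjusted p = 0.0139 and 2.38e-10), where 49.9% of genes were called. The ratio of Apln to the capillary-like level was 1.99, 2.73, 4.76 and 5.0 in healthy mice, all above 1, and 0.855, 1.23, 0.828 and 1.86 in MI mice, below 1 in MI 244 and MI 255, and its call was lost without Healthy 240 (0.36), without MI 256 (0.45) and with 1 more marker UMI (0.39). Esm1 was lower in cycling cells, at −1.59 (edgeR, adjusted p = 1.85e-06). Cd34 was at −0.19 (edgeR, adjusted p = 0.0365), a call lost at −0.10 to −0.18 without Healthy 227 or any of the 4 MI mice. This value joins opposite directions in the groups. The ratio of Cd34 to the capillary-like level was 1.19 to 1.24 in healthy mice, all above 1, and 0.646 to 0.805 in MI mice, all below 1. Interferon-response cells differed from capillary-like cells for Aplnr alone, at −0.34 (edgeR, adjusted p = 0.00153, 6.48% of genes called).

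**Figure D2:**
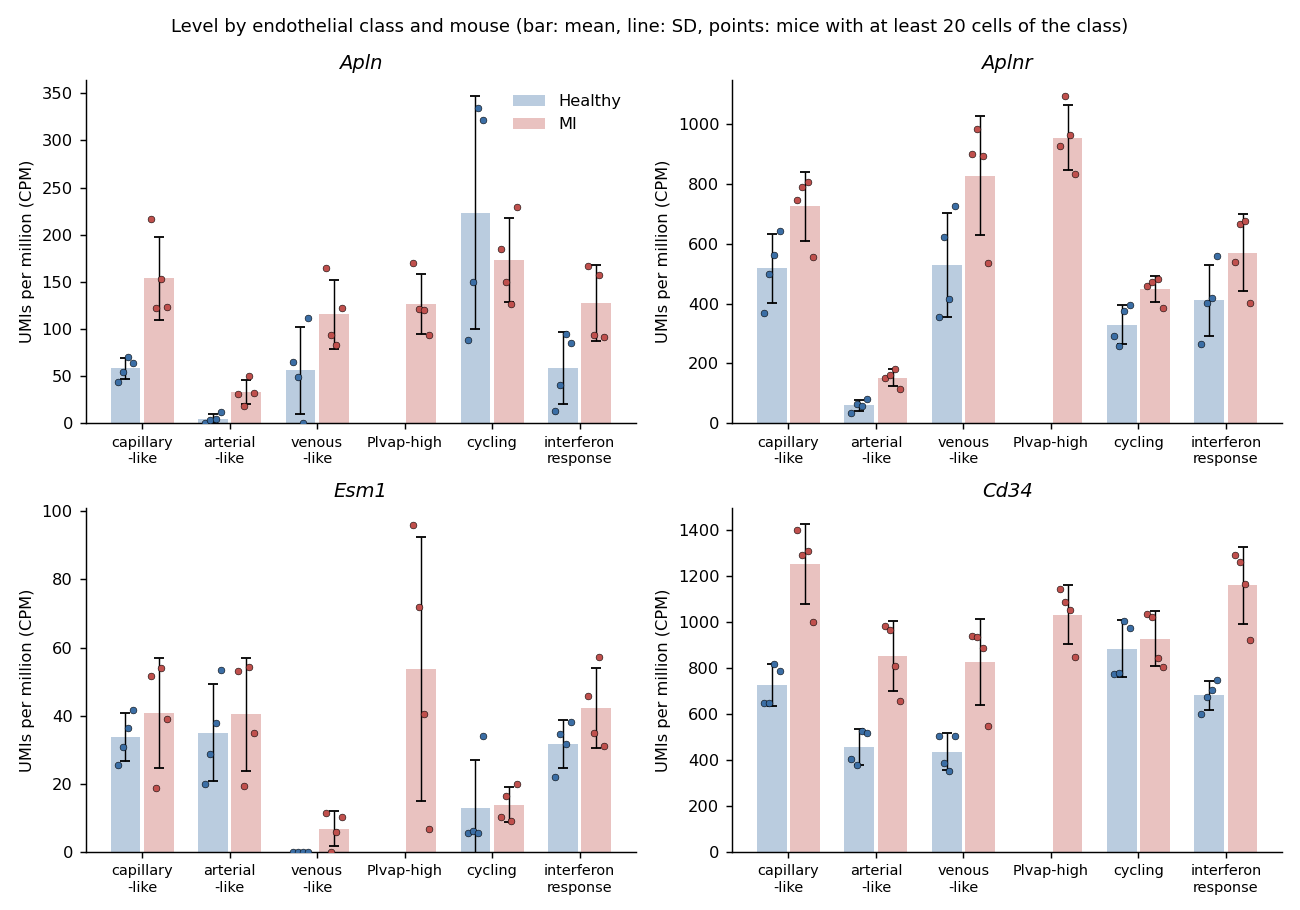
Level of each gene in 6 EC classes, in CPM of the class, for healthy and MI mice (points: mice with at least 20 cells of the class, bar: mean, line: SD). Apln and Aplnr are lowest in arterial-like cells, Aplnr is highest in Plvap-high cells and Esm1 is near 0 in venous-like cells.

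Within capillary-like cells the 2 changes of the whole endothelium were present. Apln was at 44.2, 54.8, 70.3 and 64.3 CPM in healthy and 216, 123, 153 and 124 CPM in MI mice, a log2 fold change of 1.32 ± 0.19 (edgeR, adjusted p = 0.00113, with 30.9% of genes called). Cd34 was at 646, 646, 817 and 786 CPM in healthy and 1400, 1292, 1306 and 998 CPM in MI mice, a log2 fold change of 0.71 ± 0.11 (edgeR, adjusted p = 0.00166). Neither gene overlapped between groups, and without copies the changes were 1.40 and 0.74 (edgeR, adjusted p = 0.00147 and 0.00225). Aplnr was at 369, 500, 561 and 642 CPM in healthy and 746, 791, 806 and 557 CPM in MI mice, and its difference of 0.40 ± 0.16 missed the threshold (edgeR, adjusted p = 0.0771), which it passed without Healthy 240 (0.52) or MI 256 (0.50). Esm1 differed by 0.18 (edgeR, adjusted p = 0.658).

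In arterial-like cells the receptor separated the groups. Aplnr was at 36.2, 64.2, 58.4 and 82.7 CPM in healthy and 150, 163, 181 and 113 CPM in MI mice, without overlap. The log2 fold change was 1.24 ± 0.18 (edgeR, adjusted p = 0.000331, with 14.7% of genes called). Apln went from 0, 3.93, 4.55 and 12.0 CPM to 31.3, 18.8, 50.05 and 31.7 CPM, a fitted change of 2.56 ± 0.44 (edgeR, adjusted p = 0.00100) that rests on 0 to 9 UMIs per healthy mouse, where the count of 0 in Healthy 227 allows up to 5.43 CPM. Cd34 rose by 0.83 ± 0.14 (edgeR, adjusted p = 0.000873) and Esm1 differed by 0.11 (edgeR, adjusted p = 0.833). Without copies the changes were 1.17 for Aplnr, 2.60 for Apln and 0.85 for Cd34 (edgeR, adjusted p = 0.00149, 0.00214 and 0.00188). The pooled share of macrophage-like cells with a UMI went from 3.80% to 9.28% for Aplnr, beside 4.16% to 10.6% in arterial-like cells. For Apln it went from 1.27%, on 2 healthy cells, to 1.36%, beside 0.341% to 2.13%. Over all cells set aside as other types it went from 5.12% to 9.42% for Aplnr and from 0.331% to 1.24% for Apln. The part of such UMIs in the differences was not tested.

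The effect of MI on Aplnr was larger in arterial-like than in capillary-like cells by 0.89 ± 0.12 on the log2 scale (edgeR interaction, adjusted p = 4.82e-06), a test that called 1.26% of genes. It was 0.85 without copies (edgeR, adjusted p = 2.76e-05) and 0.82–0.95 with any mouse left out. The interaction of Apln, 1.35 ± 0.40, missed the threshold (edgeR, adjusted p = 0.0869), which it passed without Healthy 240 (1.96), without MI 244 (1.57) and with 1 more marker UMI (1.83), and that of Cd34 was 0.15 (edgeR, adjusted p = 0.488).

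The smaller classes gave fewer calls. Cd34 rose in interferon-response cells by 0.70 (edgeR, adjusted p = 0.00179, 11.7% of genes called) and in venous-like cells by 0.82 ± 0.19 (edgeR, adjusted p = 0.0193, 4.85% called), the latter lost without copies (0.73; edgeR, adjusted p = 0.0921), where Healthy 228 had under 20 cells and dropped out, and, at 0.74 to 0.79, without Healthy 228, Healthy 239, MI 244, MI 250 or MI 255. Apln in interferon-response cells differed by 1.16 ± 0.37 (edgeR, adjusted p = 0.0540), and passed at 1.28 to 1.5 without Healthy 239, Healthy 240, MI 250 or MI 256. Aplnr (0.41) and Esm1 (0.43) missed the threshold there. In cycling cells Apln was at 88.2, 150, 335 and 322 CPM in healthy and 185, 150, 127 and 229 CPM in MI mice, a difference of −0.45 (edgeR, adjusted p = 0.441, with 3.93% of genes called). Healthy 228 held 86.5 CPM of Apln in these cells without its copies, on 9 UMIs of 15 cells. Aplnr (0.39) and Cd34 (0.02) missed the threshold there too, and Esm1 was under the filter on low counts, as in venous-like cells.

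Whether ligand and receptor occurred in the same cells was read at 1000 UMIs per cell. Both were seen in 13, 30, 45 and 50 cells of the healthy and 209, 156, 123 and 89 cells of the MI mice. The product of the 2 shares gives 11.2, 24.1, 36.0 and 47.1 cells for the healthy and 190, 164, 129 and 75.8 for the MI mice. Thus 138 of 399 healthy and 577 of 1441 MI cells with Apln also held Aplnr, 33.3 ± 5.19% against 28.1 ± 4.92% of the healthy cells without Apln, and 39.3 ± 3.61% against 37.8 ± 5.98% in MI (means over mice, n = 4 each).

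The excess over independence was small. The log2 odds ratio was 0.32, 0.49, 0.50 and 0.15 in healthy and 0.26, −0.13, −0.11 and 0.37 in MI mice, above 0 in 6 of 8, with a mean of 0.23 ± 0.25 (exact sign-flip permutation test, two-sided p = 0.0391, and 0.0469 adjusted over 6 pairs). The groups differed by −0.27 (exact permutation p = 0.143, n = 4 each), and by −0.83 at 500 and −0.54 at 2000 UMIs per cell (exact permutation p = 0.0286 for each, 0.0571 and 0.171 adjusted over 6 pairs). Within capillary-like cells the mean was −0.06 (exact sign-flip permutation p = 0.680), and without the copied cells 0.17 (exact sign-flip permutation p = 0.0703). The call was also lost with the highest doublet scores left out (0.24; exact sign-flip permutation p = 0.0547) and without any single mouse other than MI 250 or MI 255 (exact sign-flip permutation p = 0.0625 to 0.0781). At 500 UMIs per cell it was 0.46 (exact sign-flip permutation p = 0.0391) and at 2000 it was 0.63, above 0 in 8 of 8 mice (exact sign-flip permutation p = 0.00781). Without thinning, 64.4–71.6% of healthy and 73.0–84.8% of MI cells with Apln held Aplnr, against 35.4–49.8% and 54.5–71.3% of the other cells, but there the deeper cells are favoured for both genes.

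Each of the other pairs was read in the same way. Aplnr and Esm1 avoided each other: both were seen in 45 of 297 healthy and 94 of 448 MI cells with Esm1, and the log2 odds ratio was −1.26 ± 0.70, below 0 in 8 of 8 mice (exact sign-flip permutation p = 0.00781, the smallest possible, adjusted 0.0117). In capillary-like cells alone it was −1.35 (exact sign-flip permutation p = 0.00781). At 500 UMIs per cell it was −0.77, with 1 mouse above 0 and a healthy mean of −0.47 in place of −1.32 (exact sign-flip permutation, adjusted p = 0.0312), and at 2000 it was −1.23, below 0 in 8 of 8 mice. Apln and Cd34 went together at 0.70 ± 0.48 and Aplnr and Cd34 at 0.38 ± 0.13, each above 0 in 8 of 8 mice (exact sign-flip permutation, adjusted p = 0.0117), the latter at 0.70 with 2000 UMIs per cell. In capillary-like cells alone Aplnr and Cd34 were at 0.23, above 0 in 7 of 8 mice (exact sign-flip permutation, adjusted p = 0.0469). Apln and Esm1 were at 0.52 ± 0.37 (exact sign-flip permutation, adjusted p = 0.0117), but 0.43 without copies and 0.32 in capillary-like cells (exact sign-flip permutation p = 0.0703 and 0.133), and 1.07 at 500 UMIs per cell, above 0 in 7 of 8 mice. Esm1 and Cd34 were at 0.29 ± 0.57 (exact sign-flip permutation p = 0.180), and at 0.50 with 500 UMIs per cell (exact sign-flip permutation, adjusted p = 0.0469).

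**Figure D3:**
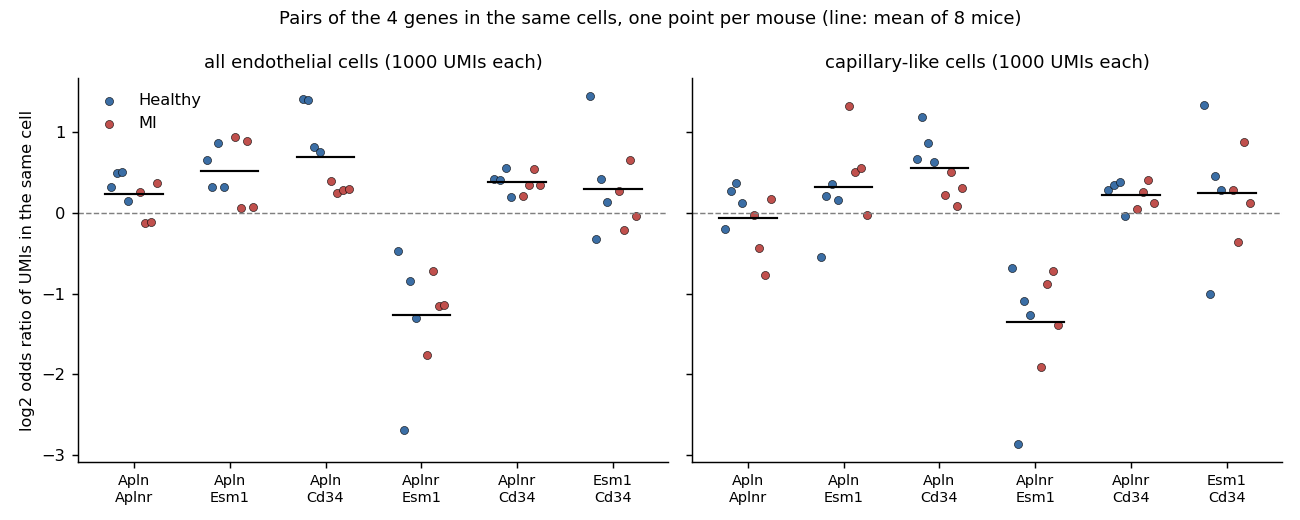
Log2 odds ratio of finding both genes of a pair in the same cell, for the 6 pairs, in all ECs and in capillary-like cells thinned to 1000 UMIs (points: 4 healthy and 4 MI mice, line: mean of 8). Aplnr and Esm1 lie below 0 in every mouse, and Apln and Aplnr scatter about 0 in capillary-like cells.

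Most cells with Apln were capillary-like, 72.5% in healthy and 54.5% in MI hearts, against 71.5% and 50.2% of the cells without it, but other classes had different shares. Arterial-like cells made up 1.04% of healthy ECs with Apln and 13.2% of those without, and 2.26% and 10.2% in MI, lower in 8 of 8 mice. Cycling cells made up 5.03% and 1.17% in healthy and 9.94% and 6.95% in MI hearts. Cells that met no marker minimum made up 15.8% and 5.29% in healthy (higher in 4 of 4 mice) and 13.7% and 10.4% in MI hearts. For Aplnr, arterial-like cells were 1.87% of healthy cells with it and 17.2% of those without, and in MI Plvap-high cells were 8.93% and 5.59%. These makeups stand beside the contrasts that follow, which were also run in capillary-like cells alone.

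Compared within each mouse at equal depth, cells with Apln differed from cells without it in 7.93% of genes (2.82% higher, 5.11% lower). The 5 leading genes were Pgf, a VEGF family ligand (131 against 26.9 CPM, log2 difference 1.86 ± 0.14), Adm, the vasodilator adrenomedullin (326 against 79.8 CPM, 1.77 ± 0.10), Angpt2, a Tie2 ligand of remodelling vessels (87.4 against 25 CPM, 1.59 ± 0.18), Kit, the stem cell factor receptor (66.6 against 18.4 CPM, 1.51 ± 0.19), and the amino acid oxidase Il4i1 (1.17 ± 0.27). Their edgeR adjusted p-values ran from 5.94e-74 to 0.000623. In capillary-like cells alone Pgf differed by 1.99, Adm by 1.64 and Angpt2 by 1.77.

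The 5 genes furthest below were Nebl (−3.43), Ccl21a (−3.09), the connexin Gja4 (−2.45), Sema3g (−2.40) and Alpl (−2.39), with edgeR adjusted p-values from 2.08e-37 to 1.85e-15. Gja4 and Sema3g are arterial markers that also set the arterial-like class, and Ccl21a is a marker of the lymphatic-like class. The part of the 31 lymphatic-like cells in the Ccl21a difference was not tested. Among the members, Esm1 was higher in cells with Apln, 58.9 against 36.4 CPM (0.76 ± 0.16; edgeR, adjusted p = 0.000166), but missed the threshold in capillary-like cells alone (0.66; edgeR, adjusted p = 0.0516) and without MI 244 (0.53; edgeR, adjusted p = 0.112). Cd34 was higher by 0.36 ± 0.06 (edgeR, adjusted p = 1.05e-06) and by 0.26 in capillary-like cells (edgeR, adjusted p = 0.00894), while Aplnr differed by 0.04 (edgeR, adjusted p = 0.863).

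Cells with the receptor held less Esm1, 19 against 48.0 CPM, a log2 difference of −1.29 ± 0.12 (edgeR, adjusted p = 7.82e-13) and of −1.38 in capillary-like cells alone, in a contrast that called 10.6% of genes (5.01% higher, 5.59% lower). Cd34 was higher by 0.23 ± 0.03 (edgeR, adjusted p = 7.29e-09) and Apln differed by 0.09 (edgeR, adjusted p = 0.478). Among the leading genes were the growth factor Igf1 (0.98), Prg4 (0.96), the carboxypeptidase Prcp (237 against 129 CPM, 0.91 ± 0.05) and Rps6kl1 (0.87). Furthest below were the lymphatic-like marker Ccl21a (−3.38), Nebl (−3.35), Eps8l2 (−3.14) and the arterial connexins Gja5 (−2.75) and Gja4 (−2.60). These genes had edgeR adjusted p-values from 2.95e-29 to 4.39e-07.

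Other genes of the apelin pathway were a list of 22 symbols, of which Adrbk1 and Grk2 name the same gene, covering processing of the peptide, signalling of the receptor and factors known upstream, of which 18 passed the filter on low counts. After MI, 3 rose and 5 fell in all ECs, where 19.2% of all genes were called higher and 18.9% lower, and the list's median log2 difference was −0.12 against −0.02 over all genes. The count of 5 was 3 without Healthy 228, MI 244 or MI 250 and 2 without MI 255. The flow-responsive factors Klf2 and Klf4 fell by 0.64 and 0.84, Mef2c, which receptor signalling acts on, by 0.37, and the hypoxia-inducible factor Epas1 by 0.62 (edgeR, adjusted p = 0.0196, 0.0165, 0.00533 and 0.0179). In capillary-like cells alone Klf2 (−0.51) and Klf4 (−0.65) missed the threshold (edgeR, adjusted p = 0.0727 and 0.0526). Hif1a rose from 50.6 to 105 CPM, by 0.97, and Adrbk1, a receptor kinase, fell by 0.34 (edgeR, adjusted p = 0.000711 and 0.0388). The other 2 that rose, named after their values were seen, were Arrb1, a β-arrestin (1.27), and the prolyl hydroxylase Egln3 (1.96), each with groups that did not overlap (edgeR, adjusted p = 0.000529 and 0.000631). Between cells with and without Apln, where 2.82% of all genes were higher and 5.11% lower, none of the 18 was higher and 5 were lower, Klf2 by a difference of −0.70 and Klf4 by −0.93 (edgeR, adjusted p = 6.47e-28 and 2.51e-31), with Epas1 at −0.59, Pcsk5 at −2.39 and Nos3 at −0.40. In capillary-like cells alone 0 were higher and 3 lower of 17 tested, against 136 and 297 of all 9034 genes. Klf2, Klf4, Epas1, Pcsk5 and Nos3 were all higher in arterial-like than in capillary-like cells.

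Of 26 other genes known from tip cells and sprouting, all tested, 14 rose and 5 fell after MI. The median was 0.41 against −0.02 over all genes, of which 19.2% were higher and 18.9% lower. This list, like the others, was chosen with earlier results of these data known. It holds Plvap, which also sets the Plvap-high class and which the paper selected for its increase in MI. The counts therefore describe the list and are not independent support. Basement membrane genes Col4a1 (552 to 951 CPM, 0.70) and Col4a2 (0.39) rose, as did Trp53i11 (0.44) and Igfbp3, an IGF-binding protein (152 to 387 CPM, 1.26; edgeR, adjusted p = 0.00111 to 0.0327 for the 4). The VEGF receptor Kdr fell from 832 to 488 CPM and the co-receptor Nrp1 from 1105 to 816 CPM, log2 differences of −0.85 and −0.52 (edgeR, adjusted p = 0.00111 and 0.00293), while Flt4 (−0.17) and Nrp2 (0.04) missed the threshold. Between cells with and without Apln, 13 of the 26 were higher and 5 lower, with a median of 0.27 against −0.05 over all genes, of which 2.82% were higher and 5.11% lower. In capillary-like cells alone 9 were higher and 2 lower, against 136 and 297 of 9034 genes. Trp53i11 (0.85) and Nrp2 (0.66) were higher in cells with Apln, and Igfbp3 (−0.90) and Kdr (−0.22) lower (edgeR, adjusted p from 2.55e-26 to 0.0249). Between cells with and without Aplnr 10 were higher and 8 lower, with a median of 0.02 against 0.01 over all genes, of which 5.01% were higher and 5.59% lower. Pgf and Angpt2, which led in cells with the ligand, were among the 8, and Adm was among the 10.

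**Figure D4:**
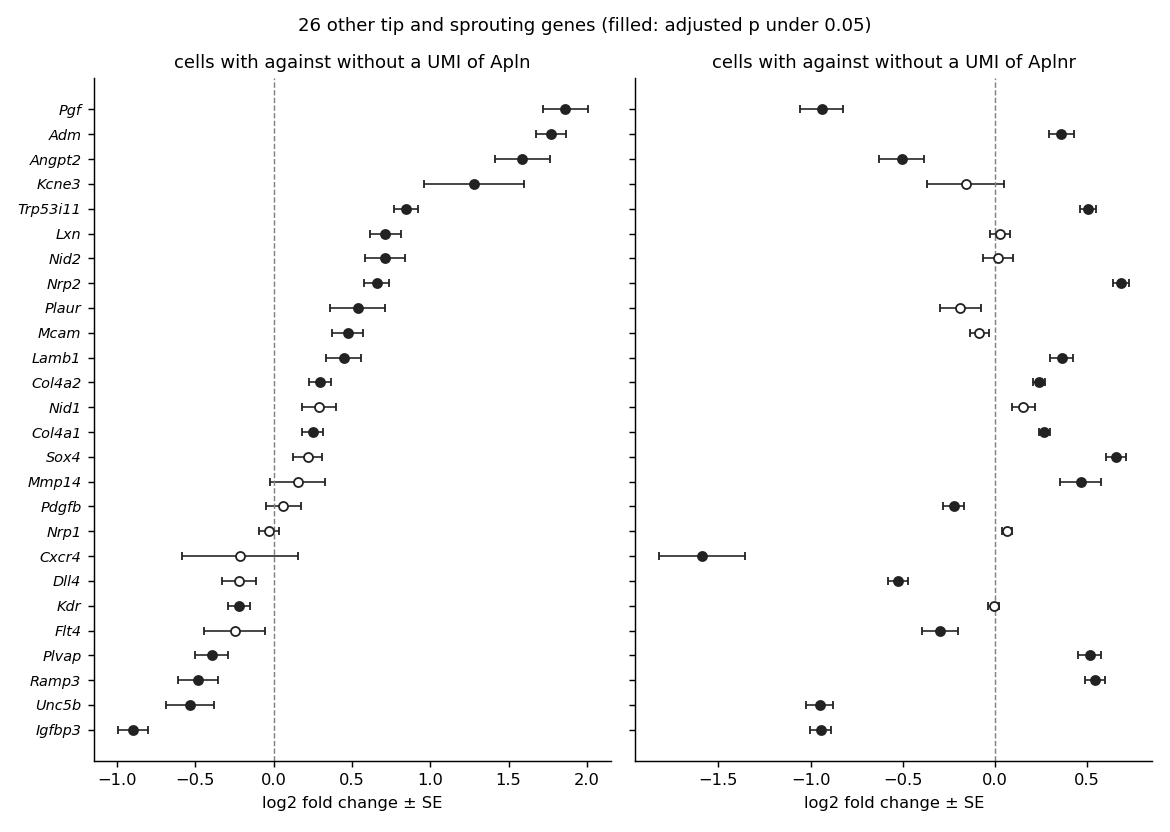
Log2 difference ± SE of 26 other tip and sprouting genes between cells with and without a UMI of Apln and of Aplnr, thinned to 1000 UMIs (filled points: adjusted p under 0.05). Pgf, Adm and Angpt2 lie furthest to the right for Apln, and Pgf and Angpt2 lie left of 0 for Aplnr.

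CD34 belongs to a family of sialomucins with podocalyxin, and of 7 such genes besides it 3 were tested. Emcn, endomucin, fell by 0.21 (edgeR, adjusted p = 0.0445), and Podxl (−0.41) and Cd164 (0.22) missed the threshold, though Cd164 did not overlap between groups. With 19.2% of all genes called higher and 18.9% lower, 1 call among 3 genes is not a result about the family. In all ECs these calls were not stable: over the alternatives 0 to 2 of the family were called higher and 0 to 2 lower. None was lower without copies, without TMM, without the filter on low counts or with thinned cells. Nor was any lower without a single mouse other than Healthy 227 or MI 256. In capillary-like cells alone, where 30.9% of genes were called, Emcn fell by 0.31 (edgeR, adjusted p = 0.0145).

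Over 44 sums of a mouse and class with at least 20 cells, the genes most like each member among 6283 were found by Pearson's r of log2(CPM + 10). The sums share libraries and depth, so these values only describe. Nearest to Apln were Tmsb10 (0.85), Map1b (0.84), Fundc2 (0.83), Pxdn (0.83) and the actin bundler Fscn1 (0.83). Nearest to Aplnr were the spermine oxidase Smox (0.92), Sox4 (0.89), Gem (0.83), Bace2 (0.82) and Gpr182 (0.82). For Esm1 they were Gja1 (0.78), the netrin receptor Unc5b (0.73), Tax1bp3 (0.73), Adarb1 (0.72) and C1qtnf1 (0.72), and for Cd34 they were Fscn1 (0.91), Sparc (0.91), Mest (0.88), Prnp (0.88) and Serpinh1 (0.87). Between members r was 0.71 for Apln and Aplnr, 0.72 for Apln and Cd34, and 0.02 and −0.10 for Esm1 with Apln and Aplnr. Over the 24 MI sums alone Apln and Aplnr stayed at 0.71 and Apln and Cd34 were at 0.36.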

How the data were processed

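Droplet 3′ RNA-seq was measured in 8 mice, 1 library each. The deposited counts are UMIs per gene and cell in 1 aggregated table, made by the authors with Cell Ranger on mm10 (submitters' processing notes, which also name R 3.5.2 and Seurat 2.3), in which no cell has fewer than 403 genes or more than 19.96% mitochondrial UMIs. From these, cells with at least 5 UMIs of another cell type's markers were set aside. Classes needed 3 UMIs of their markers (5 for interferon-response, 10 for capillary-like) from at least 2 genes (3 for capillary-like), minimums set after the marker distributions were seen. Copied cells shared a barcode with a cell of another library and at least 90% of UMIs on the same genes, as a share of the cell with fewer UMIs. Doublets were scored on simulated pairs and left out as an alternative only (995 cells).

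UMIs of ECs were summed per mouse (6405076–23585379), and per mouse and class with at least 20 cells, and tested with edgeR 4.0.16 quasi-likelihood in R 4.3.3 (TMM, filterByExpr, Benjamini-Hochberg over all genes, ~ group, or ~ mouse + class within mice). DESeq2 1.42.0 and limma 3.58.1 were alternatives. P-values measure the spread between mice, which edgeR estimates partly from all genes together. For cells with and without Apln it rested almost wholly on the shared value. The very small p-values there therefore do not reflect each gene's own spread over mice. Shares and odds ratios (0.5 added to each count) were taken after thinning to 1000 UMIs with a fixed seed and tested by exact two-sided permutation over mice; intervals cover counting error only. With a mouse left out, the exact permutation test between groups cannot go below p = 0.0571, and the sign-flip test over 7 mice not below 0.0156.

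The members and gene lists were chosen with earlier results of these data known. Named genes were, per list, up to 6 called ones of highest mean CPM, per contrast of cells with and without a gene the 5 highest and 5 lowest called genes with at least 20 CPM and the same direction in every mouse, and per member the 5 most alike. A gene that this rule names is not reported here.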

Additional observations from a re-analysis of the deposited data

Results flagged for a closer look

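The change of Aplnr after MI differed between classes: it was 0.89 larger on the log2 scale in arterial-like than in capillary-like cells by a test of the difference itself (edgeR interaction, adjusted p = 4.82e-06). The thinned share of arterial-like cells with an Aplnr UMI was 4.16% in healthy and 10.6% in MI hearts, and in macrophage-like cells 3.80% and 9.28%. The part of UMIs from other cells in the difference was not tested.

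The log2 odds ratio of Apln and Cd34 in the same cell was higher in each healthy than in each MI mouse, but the difference did not pass after adjustment over pairs. It was 1.41, 1.39, 0.81 and 0.75 in healthy and 0.39, 0.24, 0.29 and 0.30 in MI mice, a difference of −0.79 (exact permutation p = 0.0286, n = 4 each, and 0.171 adjusted over 6 pairs). Healthy 227 and 228, the libraries with the most copied cells, were the highest. Without copies the difference was −0.57 and in capillary-like cells −0.56 (exact permutation p = 0.0286 for each), and at 2000 UMIs per cell −0.61 (exact permutation p = 0.0571).

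A single mouse stood apart, by Dixon's criterion, in 2 of 71 sets of 4 values (levels in all ECs and in each class, thinned shares and odds ratios), where chance gives about 1 in 20. Esm1 in cycling cells of healthy hearts was at 5.51, 5.99, 5.58 and 34.1 CPM, on 1 UMI in each of the first 3 mice and 7 in Healthy 240. Cd34 in venous-like cells of MI hearts was at 936, 934, 886 and 545 CPM, lowest in MI 256.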

How the results depend on the processing

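Of 852 alternative values for 78 results, 530 of those with a mouse left out and 188 of the others kept their direction and their side of the threshold, or stayed within 1.5 times for counts. The 4688 genes called in all ECs became 2669 with thinned cells and 3023 without both mice with Y-linked counts, an alternative chosen after seeing the data, and the split of 2364 higher and 2324 lower became 3056 and 1749 without TMM, which moved the median of all genes from −0.02 to 0.07. Aplnr in all ECs passed the threshold with DESeq2 (0.47), limma-voom (0.48), no TMM (0.55), no filter (0.48) and no doublets (0.48). The Aplnr share difference passed with all UMIs (27.2 percentage points), and the Apln share difference without both Y-linked mice was 4.16 points with the smallest p that 3 against 3 allow. Ligand and receptor in the same cells gave 0.17 without copies, 0.24 without doublets and −0.061 in capillary-like cells. In capillary-like cells alone 433 genes in place of 851 separated cells with and without Apln and 525 in place of 1136 those with and without Aplnr, and the differences of Aplnr (−0.14) and Apln (−0.10) there changed sign. Without copies, which also took Healthy 228 under 20 cells and out of both fits, the venous-like and cycling calls fell from 158 and 285 to 98 and 67, against 96 and 64 without Healthy 228. With 1 more marker UMI, 828 in place of 1303 genes separated venous-like cells.

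Other reversed values were not called. They were Esm1 in all ECs (−0.20) and its share (−0.28) without both Y-linked mice, and Cd34 in cycling cells without copies (−0.020). With 1 more marker UMI they were Esm1 in the interaction (0.44) and in arterial-like cells (−0.076) and Aplnr in venous-like cells (−0.13). At 2000 UMIs Esm1 with Cd34 was at −0.0090.

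With each mouse left out, ranges were 3430 to 5083 for the 4688 genes, 0.34 to 0.62 for Aplnr and −0.051 to 0.29 for Esm1 in all ECs, 2324 (without MI 244) to 4043 for the 3489 capillary-like calls, 864 to 1610 for the 1326 arterial-like, 82 to 187 for the venous-like, 64 to 268 for the cycling, 520 to 1308 for the 918 interferon-response and 73 to 189 for the 144 interaction calls. Esm1 ran from −0.062 to 0.34 in arterial-like cells, −0.12 to 0.077 in the interaction, −0.020 to 0.061 for arterial-like and −0.048 to 0.20 for interferon-response against capillary-like cells. Cd34 in cycling cells ran from −0.041 to 0.096 and Aplnr in cells with Apln from −0.0018 to 0.086. The share differences ran from 4.59 to 5.97 points for Apln and −0.029 to 0.58 for Esm1, and the ligand and receptor odds ratio from 0.19 to 0.28, past the threshold without MI 250 or MI 255 only. The causes were not tested. No paired analysis was possible because the groups share no replicate numbers. Too few venous-like cells were left with 1 more marker UMI for a test of MI.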
